A study of Homo sapiens with 8 samples.

Results

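Cells labelled as knockouts of the stress factor ATF3 were compared with wild-type cells in complete medium. The comparison uses 4 of the 8 RNA sequencing libraries of the series, chosen because they are labelled as hTERT-RPE1 cells in complete medium, and they form 2 pairs of an ATF3 wild-type and an ATF3-knockout-labelled library. hTERT-RPE1 is a human line from retinal pigment epithelium that was immortalized with the catalytic subunit of telomerase, so both genotypes carry that transgene. The pairs come from independent experiments run a week apart, called batch 1 and batch 2 below. All cells had 2 days of preculture, and the complete-medium libraries are labelled as the start of the time course. The other 4 libraries came from cells moved to medium without serine and glycine for 8 h, so time and medium differ together. They were used to see whether a difference found in complete medium was also present in separate cultures of the same batch. They also entered the fits of all 8 libraries, where stated. The knockout allele, and whether the cells were 1 clone or a pool, were not described in what was read here.

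ATF3 is a basic leucine zipper protein of the ATF/CREB family. It is low in resting cells, is induced by amino acid shortage, DNA damage, cytokines and other stresses, and binds ATF/CRE and AP-1 elements alone or with partners such as JUN proteins. It can repress or activate, and it is known for limiting inflammatory gene expression and for acting downstream of ATF4 in the amino acid response.

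Expression is given in FPKM, fragments per kilobase of transcript scaled to the mapped fragments of the library. Each difference is log2(FPKM + 1) of the knockout-labelled library minus that of the wild-type library of the same batch, so 1 stands for about a doubling and low genes are understated. The filter of 1 FPKM or more in at least 2 of the 4 libraries kept 15944 of 57884 listed genes, of which 12372 are protein-coding. At the edge of the filter, POU5F1 passed with a second-highest value of 1.00105 FPKM and ADSSL1 missed it with 0.999924 FPKM. The absolute depth is unknown. Relative depth, read from the steps between low values, ran from 1.00 to 1.27, FPKM sums ran from 2429660 to 3118660, and small RNA genes took 60.5% to 62.7% of each sum.

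The batches stood apart more than the genotypes did. All libraries carry the same cell line label, and whether both batches hold the same line was not tested. Across protein-coding genes, the 2 complete-medium libraries of a batch correlated at r = 0.971 in batch 1 and r = 0.939 in batch 2, while libraries of different batches correlated at r = 0.727 to 0.769. These values are across genes, which are not independent replicates, and the tables of the batches were normalized separately. KRT19, a simple-epithelium keratin, stood at 0.28 and 0.00 FPKM in the wild-type and knockout-labelled libraries of batch 1 and at 321 and 375 in batch 2. SPARC, a secreted matrix glycoprotein, stood at 343 and 429 in batch 1 and at 0.62 and 0.45 in batch 2. Of 20 retinal pigment epithelium markers, 6 passed the filter. Among the defining ones, OTX2, RGR and TTR were listed at 0 in all 4 libraries, and RPE65, the visual cycle isomerase, lay between 0.32 and 0.69 FPKM. MITF, the pigment cell regulator, lay between 1.96 and 6.55 FPKM, and the list summed to between 33.0 and 42.2 FPKM. Of 12 immune markers only CD68 passed the filter, and of 11 endothelial markers none did. A gene-level mean over both batches therefore joins pairs of unlike libraries, and each difference below is given per batch.

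The targeted gene was measured first. ATF3 (ENSG00000162772, hg19 chromosome 1, 212738676 to 212794119, a locus that 2 listed genes share) measured 3.47 FPKM in the wild-type library of batch 1 and 3.38 in its knockout-labelled partner. The batch 2 pair measured 3.65 FPKM (wild type) and 20.8 FPKM (labelled knockout). The transcript was therefore nearly equal in one pair and higher, not lower, in the library labelled knockout of the other, with a difference of -0.03 in batch 1 and 2.23 in batch 2. The mean difference was 1.10 ± 0.60 (SE, n = 2 pairs; limma adjusted p = 0.969). In the serine/glycine-free pairs the ATF3 difference was -0.45 in batch 1 and 1.62 in batch 2. The excess of batch 2 over batch 1 was 2.16 ± 0.56 (SE) and did not pass (limma genotype-by-batch term over 8 libraries, adjusted p = 0.0922). A transcript level does not show whether protein is made, and the libraries are named by their labels throughout. Without the wild-type complete-medium library of batch 2, in a fit of the remaining 7 libraries, the ATF3 estimate was -0.05 (limma adjusted p = 1.000).

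The first question was which genes differed between the genotypes in both batches. No gene typed as protein-coding passed in a limma fit with the batch as a block, with adjustment over the 15944 genes (threshold 0.05). The fit called 5 genes higher (0.0314% of those tested) and 8 lower (0.0502%), and all 13 were listed at 0 in both libraries of 1 genotype. Of these, 9 are annotated as small nuclear, nucleolar or Cajal body RNAs, and the other 4 had no match in the annotation. SNORD54, a box C/D small nucleolar RNA (chromosome 8, 56979854 to 56987069, where 2 listed genes share the locus), stood at 2458 and 2023 FPKM in the wild-type libraries and was listed at 0 in both knockout-labelled ones. SNORD70, also a small nucleolar RNA, was listed at 0 in both wild-type libraries and stood at 246 and 415 FPKM in the knockout-labelled ones. In the serine/glycine-free libraries the SNORD54 difference had the opposite sign, 11.07 in batch 1 and 9.72 in batch 2, while that of SNORD70 kept its sign at 8.13 and 1.27. Of the 13, 2 passed a difference of 1 in the same direction in both serine/glycine-free pairs. With all 8 libraries in the fit, 2 genes were called higher and 4 lower, and 5 of those are among the 13. An exact 0 for such a short RNA can be a failed estimate. At an unadjusted p under 0.05 the fit held 608 genes, and among protein-coding genes fitted alone it held 507 with a smallest adjusted p of 0.972. If no gene differed, 797.2 and 618.6 would be expected. The fit had 1 residual degree of freedom, and the number of calls is no measure of how many genes differ. P-values here rest on 2 experiments. In limma, they and the SE join the spread between the 2 pairs with a prior spread from all genes (prior degrees of freedom 3.65). An SE with n = 2 pairs is thus not the spread of those pairs alone.

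The size of the difference was therefore described batch by batch. In batch 1, 122 protein-coding genes were higher by 1 or more in the knockout-labelled library (0.986%) and 269 were lower (2.17%). In batch 2 the numbers were 691 higher (5.59%) and 463 lower (3.74%). Both batches together held 1455 such genes, and 90 of them passed 1 in both: 36 in the same direction and 54 in opposite directions. The differences of the 2 batches, which share no library, correlated at r = -0.027 across the 12372 protein-coding genes, and 49.1% of genes had the same sign. Between the complete-medium and the serine/glycine-free pair of a batch, r was 0.387 with 63.9% of signs shared in batch 1 and 0.770 with 73.1% in batch 2. The genotype difference was therefore nearly unrelated between the experiments, and was shared between media in part in batch 1 and more closely in batch 2.

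**Figure D1:**
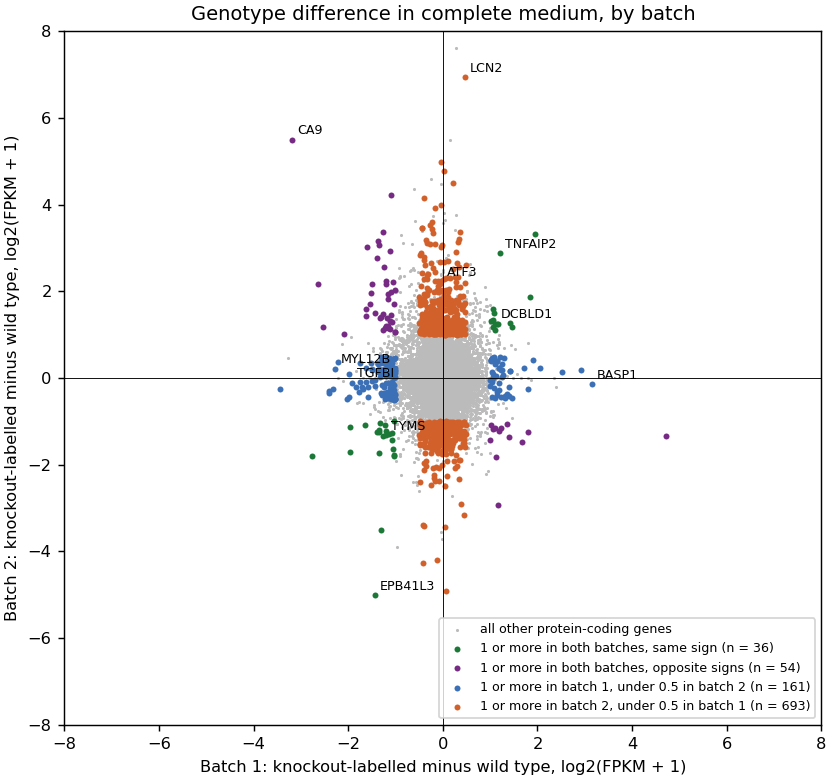
Difference between knockout-labelled and wild-type libraries in complete medium, in log2(FPKM + 1), for batch 1 (horizontal axis) and batch 2 (vertical axis). Each point is a protein-coding gene. The 36 green genes passed 1 in both batches with the same sign and the 54 purple ones with opposite signs, against 161 blue genes of batch 1 and 693 orange genes of batch 2 that were under 0.5 in the other batch.

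Genes higher in both knockout-labelled libraries were few. By the rule of 1 or more in both batches, 14 protein-coding genes were shared higher (0.113%) and 4 of them reached 5 FPKM in each batch. TNFAIP2, a TNF-induced protein of membrane protrusions (ENSG00000185215, chromosome 14, 103589779 to 103603776), went from 4.70 FPKM in wild type to 12.1 in batch 1 and from 8.54 to 69.0 in batch 2. It was higher in both serine/glycine-free pairs as well, by 0.69 and 2.58. The excess was larger in batch 2, by 1.78 ± 0.25 (SE; limma genotype-by-batch term over 8 libraries, adjusted p = 0.0230). DCBLD1, a membrane protein with a CUB domain (chromosome 6, 117609463 to 117923691, where 9 listed genes share the locus), went from 43.0 to 94.1 in batch 1 and from 7.86 to 20.1 FPKM in batch 2. Its mean difference was 1.18 ± 0.21 (SE, n = 2 pairs; limma adjusted p = 0.960). LPHN1, an adhesion G protein-coupled receptor also called latrophilin, went from 5.26 to 12 FPKM and from 2.56 to 9.74. In the serine/glycine-free libraries its difference was -0.03 in batch 1 and 1.17 in batch 2. MRPL30, a mitochondrial ribosomal protein whose locus 14 listed genes share, went from 0.97 to 6.57 FPKM and from 0.00928 to 9.13, with -0.47 and 0.43 in the serine/glycine-free pairs. Of the 14 genes, 7 kept their sign in both of those pairs and 1 passed 1 in both. Of all 2624 protein-coding genes higher in both complete-medium pairs, 1167 were higher in both serine/glycine-free pairs.

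More genes were lower in both. The shared lower class held 22 protein-coding genes (0.178%), of which 16 were lower in both serine/glycine-free pairs and 7 by 1 or more in both. Of all 3448 protein-coding genes lower in both complete-medium pairs, 1928 were lower in both serine/glycine-free pairs. Of these 22 genes, 7 lie on chromosome 18, which carries 182 of the 12372 protein-coding genes tested.

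EPB41L3, a band 4.1 protein that links membrane proteins to the actin cytoskeleton (ENSG00000082397, chromosome 18, 5392383 to 5630699), went from 39.5 FPKM in wild type to 13.9 in batch 1 and from 53 to 0.67 in batch 2. Both wild-type libraries lay above both knockout-labelled ones. Its mean difference was -3.23 ± 0.86 (SE, n = 2 pairs; limma adjusted p = 0.969), and in batch 2 it was lower by 3.51 ± 0.30 more than in batch 1 (limma genotype-by-batch adjusted p = 0.00775). Its neighbour TMEM200C, a transmembrane protein, went from 5.92 to 1.80 FPKM and from 11 to 0.0541. TYMS, thymidylate synthase, which makes the thymidine nucleotide for DNA synthesis (ENSG00000176890, chromosome 18, 596988 to 712676, a locus shared by 8), went from 32.3 to 13.5 in batch 1 and from 30.7 to 11.7 FPKM in batch 2. The TYMS differences, -1.20 and -1.32, were alike in the batches, and in the serine/glycine-free pairs they were -1.53 and -0.99. EMILIN2, an elastic fibre glycoprotein, went from 10.9 to 4.40 FPKM and from 21.6 to 8.18. RAB12, a small GTPase of endosomal traffic, went from 9.17 to 3.97 FPKM and from 30.0 to 14.4, differences of -1.03 and -1.0. SERPINB7, a serine protease inhibitor further along chromosome 18, went from 3.57 to 0.17 FPKM and from 84.8 to 38.3.

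Of the members on other chromosomes, 5 were at 5 FPKM or more in each batch. ITGA6, the integrin alpha 6 subunit that binds laminin (chromosome 2, 173292082 to 173489823, listed with PDK1 as one locus), went from 35.6 to 16.5 in batch 1 and from 93.5 to 38.1 FPKM in batch 2. CA12, a membrane carbonic anhydrase (chromosome 15, 63613577 to 63674360), went from 14.5 to 6.54 FPKM and from 10.1 to 2.23, and it was lower by 1.15 and 1.64 in the serine/glycine-free pairs. TRNP1, a nuclear regulator of progenitor proliferation, went from 18.9 to 7.28 FPKM and from 111 to 43.5. IMMP1L, a subunit of the mitochondrial inner membrane peptidase, went from 198 to 84.9 FPKM and from 140 to 59.2. RBM14-RBM4, a readthrough transcript whose reads cannot be told apart from those of its parent genes, went from 5.88 to 1.71 FPKM and from 12.3 to 3.0. TRNP1 and IMMP1L had the smallest limma adjusted p of the 10 shared lower genes described at 5 FPKM or more, both 0.822, and neither passed. Just outside the threshold of 1 was ID3, an inhibitor of basic helix-loop-helix factors, with -0.98 in batch 1 and -1.92 in batch 2, and RAB12 was just inside. On the higher side LPHN1 was just inside with 1.05 and 1.59, and ABLIM1, an actin-binding LIM protein, just outside with 1.18 and 0.99.

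**Figure D2:**
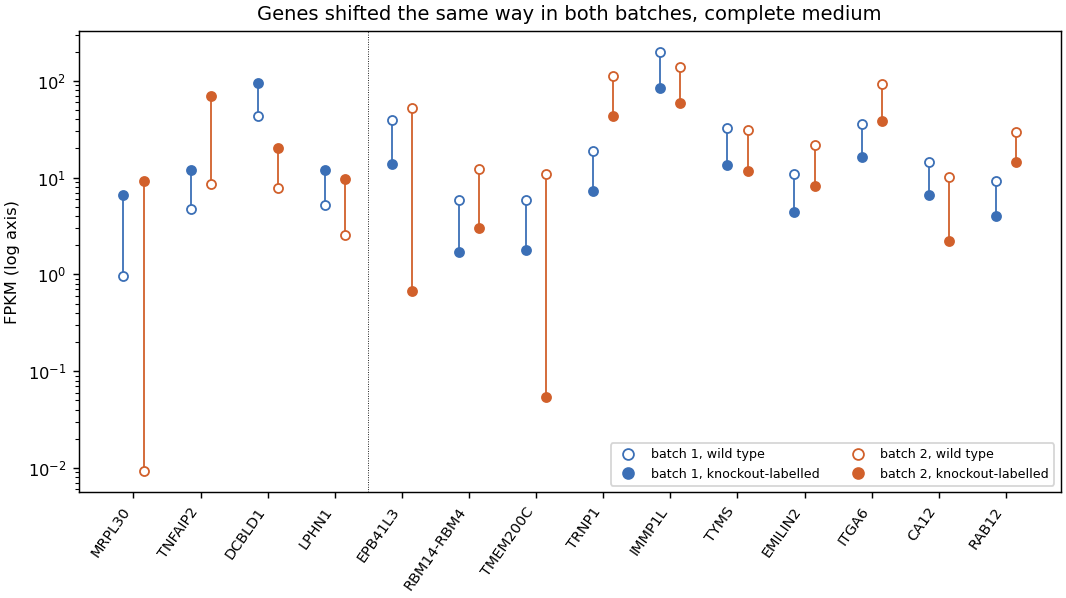
FPKM (log axis) in the 4 complete-medium libraries for the 14 shared genes with 5 FPKM or more in each batch, 4 higher at left of the dotted line and 10 lower at right. Open points are wild type and filled points knockout-labelled, joined within a batch, with batch 1 in blue and batch 2 in orange. The filled point lies on the same side of the open one in both batches for each gene, while levels and sizes differ between batches, as for EPB41L3 at 13.9 and 0.67 FPKM.

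Because ATF3 binds ATF/CRE and AP-1 elements, the promoters of the shared genes were searched for TGACGTCA and TGANTCA (N is any base) on both strands, in the 300 bases from 250 before to 50 after each RefSeq start site (GRCh38.p14). The ATF/CRE element was in 0 of 7 shared higher and 0 of 20 shared lower genes with a promoter in the table, and in 3.84% of the 10044 tested protein-coding genes with one. The pattern TGANTCA, looser than an AP-1 element with C or G at N, was in 0 of 7 and 3 of 20, beside 7.16% of all. The 3 genes are EMILIN2, GNG2 (a G protein gamma subunit) and SERPINB7, and the 250 bases before their starts are shown because they hold the matches, in capitals. EMILIN2 is at chr18:2846756-2847005, GNG2 at chr14:51825924-51826173 and SERPINB7 at chr18:63775168-63775417, all on the plus strand.
EMILIN2: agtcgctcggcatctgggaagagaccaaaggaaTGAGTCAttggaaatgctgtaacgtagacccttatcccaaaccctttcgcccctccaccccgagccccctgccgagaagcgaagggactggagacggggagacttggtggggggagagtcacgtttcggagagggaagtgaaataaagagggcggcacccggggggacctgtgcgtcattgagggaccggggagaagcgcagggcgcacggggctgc
GNG2: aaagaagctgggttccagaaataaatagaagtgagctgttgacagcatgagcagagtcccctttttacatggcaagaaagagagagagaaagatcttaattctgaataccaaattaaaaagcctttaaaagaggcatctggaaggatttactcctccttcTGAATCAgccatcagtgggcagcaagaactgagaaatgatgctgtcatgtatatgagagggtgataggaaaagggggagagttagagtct
SERPINB7: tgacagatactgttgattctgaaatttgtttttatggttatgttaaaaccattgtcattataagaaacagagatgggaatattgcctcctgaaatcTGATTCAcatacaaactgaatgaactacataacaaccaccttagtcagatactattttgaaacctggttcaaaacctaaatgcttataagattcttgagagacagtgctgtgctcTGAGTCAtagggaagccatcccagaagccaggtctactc
The match in EMILIN2 begins 217 bases before the start, that in GNG2 90 bases before, and those at this start of SERPINB7 154 and 39 bases before. A further RefSeq start of SERPINB7 (chr18:63777531-63777780 before it), not shown, has matches 206 and 45 bases before, and another start has none. GNG2 has further RefSeq starts as well, none with a match. A match is a run of letters, not a bound site, and TGAATCA in GNG2 and TGATTCA in SERPINB7 have neither C nor G at N. GNG2 itself went from 3.49 to 1.19 in batch 1 and from 45.6 to 12.5 FPKM in batch 2.

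The second question was which differences belonged to 1 batch. A gene was placed in the class of a batch when it passed 1 there, stayed under 0.5 in the other and was at 1 FPKM or more there. In batch 1 that class held 49 genes higher (0.396%) and 112 lower (0.905%). In batch 2 it held 390 higher (3.15%) and 303 lower (2.45%). Over all 15944 genes, non-coding ones included, the classes held 63 shared higher (0.395%), 89 shared lower (0.558%), 108 higher (0.677%) and 196 lower (1.23%) in batch 1, and 469 higher (2.94%) and 401 lower (2.52%) in batch 2. Opposite differences of 1 or more were found in 65 genes higher in batch 1 (0.408%) and in 89 genes higher in batch 2 (0.558%). In the serine/glycine-free pair of the same batch, 90 of the 112 and 36 of the 49 genes of batch 1 kept their sign (63.9% of all protein-coding genes did), as did 371 of the 390 and 291 of the 303 genes of batch 2 (73.1% of all). Fewer reached 1 again in the same direction: 28 of the 112 and 6 of the 49 in batch 1, and 220 of the 390 and 168 of the 303 in batch 2. Classed anew from the serine/glycine-free libraries, 19 of the 161 genes of batch 1 and 284 of the 693 of batch 2 fell in the same batch's class. The limma genotype-by-batch term over all 8 libraries, with the medium as a term, called 349 protein-coding genes larger (2.82%) and 180 smaller (1.45%) in batch 2, with 2971 at an unadjusted p under 0.05. Those calls rest on the 2 cultures per batch and genotype, 1 in each medium. They measure the spread between cultures of a batch, joined with a prior over all genes, and not that between experiments. The fit includes the libraries that formed the classes. For genes picked by class, here and below, a term that passed is therefore no independent support.

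Of the genes lower in batch 1 alone, 7 are described. MYL12B, a myosin regulatory light chain (ENSG00000118680, chromosome 18, 3261907 to 3278282), went from 204 FPKM in wild type to 41.1 in batch 1 and from 187 to 217 in batch 2. Its difference was 2.32 ± 0.14 higher in batch 2 than in batch 1 (SE; limma genotype-by-batch adjusted p = 0.00343). The adjacent MYL12A, a paralog with a like sequence, went from 87.1 to 21.2 FPKM and from 159 to 170. YES1, a Src-family kinase, went from 57.4 to 16.7 in batch 1 and from 66.7 to 57.8 FPKM in batch 2. ENOSF1, which overlaps TYMS on the opposite strand so that reads may be split between them, went from 12.2 to 1.49 FPKM and from 20.6 to 16.0. These 4 genes all lie at the start of chromosome 18. BNIP3, a hypoxia-induced mitophagy receptor on chromosome 10, went from 27.1 to 5.88 in batch 1 and from 123 to 87.5 FPKM in batch 2 (genotype-by-batch 1.41 ± 0.19, limma adjusted p = 0.0201). TGFBI, a matrix protein induced by TGF-beta, went from 200 to 52.1 FPKM in batch 1, while in batch 2 it stood at 6.14 and 5.61. Its genotype-by-batch term did not pass (limma adjusted p = 0.223), and it was lower by 0.70 in the serine/glycine-free pair of batch 2. ASRGL1, an asparaginase-like enzyme, went from 11.3 to 2.10 FPKM and from 9.55 to 6.82.

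Genes higher in batch 1 alone were fewer. BASP1, a membrane-associated growth-cone protein (chromosome 5, 17065707 to 17276943), went from 0.34 to 10.8 in batch 1 and from 53.7 to 48.5 FPKM in batch 2. PTGFR, the prostaglandin F receptor, went from 2.50 to 11.2 FPKM and from 8.62 to 7.10. The genotype-by-batch term passed for both, at -2.93 ± 0.36 (limma adjusted p = 0.0167) and -1.98 ± 0.31 (limma adjusted p = 0.0303). RAI14, an actin-associated ankyrin protein, went from 21.8 to 52.2 FPKM and from 28.6 to 32.5, with an adjusted p of 0.164 for that term in limma. SMIM19, a small membrane protein, was higher by 1.40 in complete medium and lower by 0.22 without serine and glycine in the same batch.

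Differences were larger in batch 2. ASS1, argininosuccinate synthase, the enzyme that lets cells make arginine (ENSG00000130707, chromosome 9, 133320316 to 133376661), went from 1.92 FPKM in wild type to 91.3 in the knockout-labelled library, while in batch 1 it stood at 16.5 and 16.0. The genotype-by-batch term was 4.90 ± 0.62 (SE; limma adjusted p = 0.0188). AP1M2, a clathrin adaptor subunit of epithelial cells, was listed at 0 in the wild-type library of batch 2 and stood at 26.6 FPKM in the knockout-labelled one, beside 104 and 105 in batch 1. BEX1 and MAGEA12, genes of chromosome X, were at 0.00 and 0.0843 FPKM in wild type and at 16.9 and 15.5 FPKM in the knockout-labelled library of batch 2. In these 4 genes the wild-type library of batch 2 was low and the other 3 were high. THBS1, thrombospondin 1, went from 15.7 to 170 in batch 2 and from 64.0 to 55.6 FPKM in batch 1, and PMEPA1, a TGF-beta-induced membrane protein, went from 7.21 to 98.2 and from 72.8 to 62.4. The genotype-by-batch term did not pass for these, at limma adjusted p = 0.150 and 0.0836.

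On the lower side in batch 2, 7 genes are described. PLAT, the tissue plasminogen activator, went from 103 to 8.89 in batch 2 and from 32.3 to 23.8 FPKM in batch 1. FBN1, fibrillin 1 of microfibrils, went from 25.6 to 1.45 FPKM in batch 2 and stood at 5.33 and 5.58 in batch 1. COL6A3, a collagen VI chain, went from 36.0 to 3.13 FPKM in batch 2, with 17.1 and 23.7 in batch 1. IGFBP4, a binding protein for insulin-like growth factors, went from 194 to 25.0 FPKM, with 4.58 and 6.23 in batch 1. DPYSL3, EDIL3 and PODXL, a cytoskeletal protein, an integrin ligand and a sialomucin, were lower by 4.28, 4.19 and 3.42 in batch 2 and by 0.42, 0.13 and 0.40 in batch 1. The genotype-by-batch term passed for each of these 7 genes, with limma adjusted p from 0.0028 for IGFBP4 to 0.0123 for FBN1. The genes were picked for their batch 2 difference in libraries that the term also uses. Of the 390 genes higher in batch 2 alone, the knockout-labelled library was nearer than the wild-type one to the mean of the batch 1 libraries in 230 (59.0%), and of the 303 lower genes in 97 (32.0%), levels of separately normalized tables being set side by side.

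Some genes had opposite differences in the batches. CA9, a membrane carbonic anhydrase induced by hypoxia (ENSG00000107159, chromosome 9, 35658301 to 35681156), went from 9.24 FPKM in wild type to 0.12 in batch 1 and from 0.22 to 54.1 in batch 2. The same opposition stood in the serine/glycine-free pairs, at -1.59 and 5.11, and the genotype-by-batch term was 7.70 ± 0.78 (SE; limma adjusted p = 0.0107). LLGL2, an apical-basal polarity protein, went from 4.83 to 1.02 in batch 1 and from 9.28 to 32.6 FPKM in batch 2, and CST6, cystatin M, went from 2.06 to 0.00 and from 0.00 to 7.07. PEG10, an imprinted gene derived from a retrotransposon, went the other way, from 0.66 to 2.91 in batch 1 and from 38.7 to 16.7 FPKM in batch 2 (genotype-by-batch -1.91 ± 0.32, limma adjusted p = 0.0346). LUZP6 went from 0.00 to 25.5 FPKM in batch 1 in complete medium and from 27.7 to 0.00 without serine and glycine, where 5 listed genes share the locus. Of 41 protein-coding genes lower in batch 1 and higher in batch 2 by 1 or more (0.331%), 25 kept both signs in the serine/glycine-free pairs, as did 8 of 13 of the reverse kind (0.105%). Of the 10917 protein-coding genes below 1 in both batches, 5058 kept both signs.

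Stretches of neighbouring genes with a common difference were looked for after chromosome 18 had been seen among the shared lower genes. Medians were taken over windows of 20 neighbouring protein-coding genes at 1 FPKM or more in all 4 libraries, 971 windows in all. They had an SD of 0.165 in batch 1 and 0.240 in batch 2, and windows at 0.8 or beyond in complete medium were joined. The complete-medium values of a stretch in its own batch are thus fixed by that choice, while the serine/glycine-free libraries and the other batch were not used. In batch 1 this gave 1 stretch, at the start of chromosome 18 (158383 to 12030876), with a median difference of -1.16 over 30 genes. Of the 30, 28 were lower in complete medium and 29 without serine and glycine, where the median was -1.36. NDC80, a kinetochore subunit, went from 35.0 to 9.26 FPKM there, VAPA, an endoplasmic reticulum anchor protein, from 87.8 to 31.2, and SMCHD1, a chromatin protein, from 26.5 to 9.16. In batch 2 the same 30 genes had a median of -0.52 in complete medium and -0.54 without serine and glycine, and 25 were lower (51% of all). Of the 22 shared lower genes, TYMS, EMILIN2, EPB41L3, TMEM200C and RAB12 lie within this stretch.

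In batch 2 the windows gave 4 stretches. On chromosome 14, from 74181825 to 81687721, all 40 genes were higher in the knockout-labelled library in both media, with medians of 1.14 in complete medium and 1.13 in the other. In batch 1 their median was -0.09, and 16 of the 40 were higher. NPC2, the lysosomal cholesterol carrier, went from 58.4 to 229 in batch 2 and from 167 to 132 FPKM in batch 1, and TMED10, a cargo receptor of the secretory pathway, went from 91.5 to 339 and from 123 to 133. DLST, a subunit of the 2-oxoglutarate dehydrogenase complex, went from 16.7 to 54.7 FPKM and from 20.4 to 23.5. Before that stretch on chromosome 14, from 65381079 to 71276251, 27 of 30 genes were lower in batch 2, with a median of -0.82, and -0.73 without serine and glycine. ACTN1, alpha-actinin, went from 182 to 88.6 FPKM there, and EIF2S1, the alpha subunit of the initiation factor eIF2, from 214 to 119. A stretch of chromosome 18, from 32912176 to 48474691, had 27 of 30 genes lower with a median of -0.89, and -0.83 without serine and glycine. ATP5A1, the ATP synthase alpha subunit, went from 200 to 97.4 FPKM. On chromosome 17, from 16945859 to 26734215, 37 of 40 genes were higher with a median of 0.82, and 0.68 without serine and glycine. SREBF1, the sterol and fatty acid regulator, went from 7.2 to 18.9 FPKM. In batch 1 the lower stretch of chromosome 14 had 22 of 30 genes lower (54.3% of all), with a median of -0.14. That of chromosome 18 had 20 of 30 lower, with a median of -0.10. The stretch of chromosome 17 had 27 of 40 higher in batch 1 (44.9% of all), with a median of 0.05. With windows of 40 genes, 1 window in batch 1 was at -0.8 or lower, 5 in batch 2 were at 0.8 or higher, and none in batch 2 was at -0.8 or lower. Genes of these stretches were picked here after their values were seen. DNA copy number was not measured in these libraries, and its part in the stretches was not tested.

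**Figure D3:**
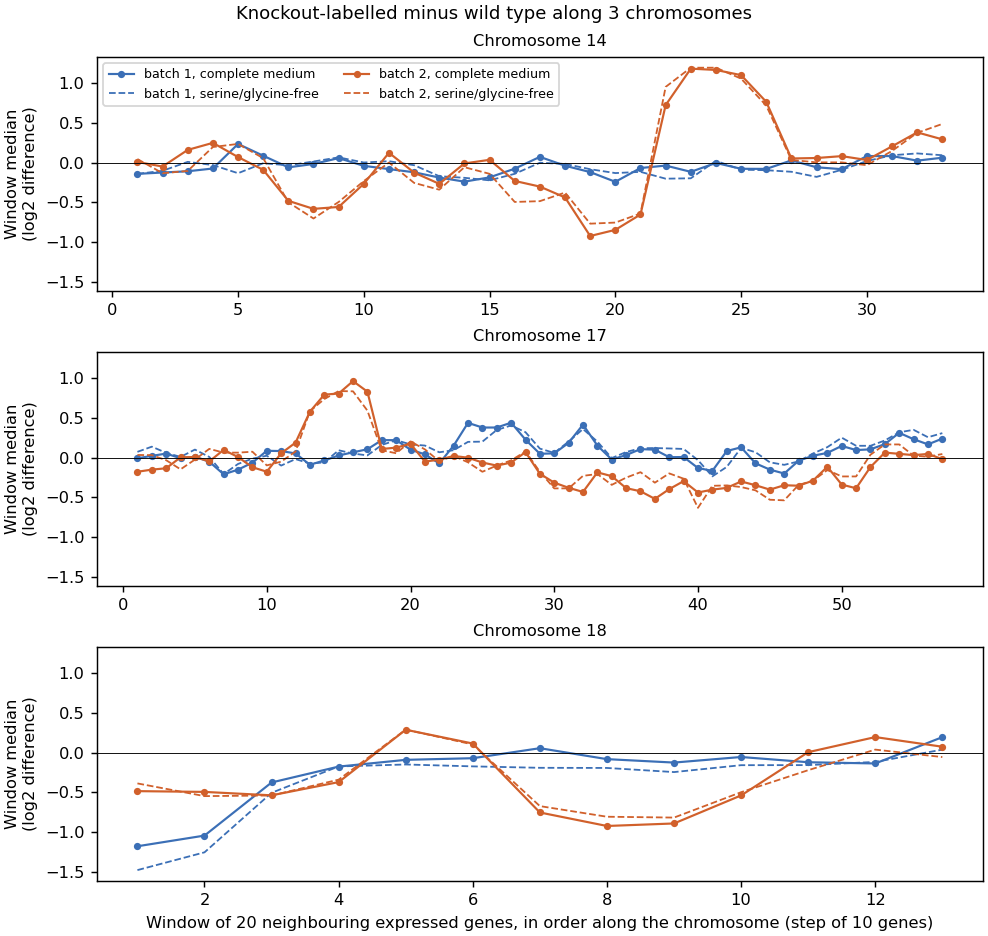
Median difference between knockout-labelled and wild-type libraries in windows of 20 neighbouring protein-coding genes along chromosomes 14, 17 and 18, in gene order with a step of 10 genes. Solid lines are complete medium and dashed lines serine/glycine-free medium, with batch 1 in blue and batch 2 in orange. The lines of a batch run together in both media, and the batches part over the raised stretch of chromosome 14 (medians of 1.14 and -0.09).

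Gene lists were then read beside the background over all protein-coding genes, of which 27.9% were lower in both batches and 21.2% higher in both. Members are described by counts and medians, and none passed the 4-library limma fit (adjusted p from 0.946 to 1.000).

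Of the lists read, glycolysis had the largest share of genes lower in both batches. Of 24 enzymes and transporters, 19 were lower in both batches, with medians of -0.31 in batch 1 and -0.30 in batch 2. Of the 19, 12 were lower in both serine/glycine-free pairs too, beside 1928 of 3448 over all protein-coding genes. PGK1, phosphoglycerate kinase, went from 348 to 207 in batch 1 and from 972 to 601 FPKM in batch 2, a mean difference of -0.72 ± 0.20 (SE, n = 2 pairs; limma adjusted p = 0.969). TPI1, triosephosphate isomerase, went from 878 to 597 FPKM and from 577 to 428. ENO1, enolase, went from 1390 to 1211 FPKM and from 1832 to 1107, and GAPDH from 2785 to 2414 and from 1391 to 1011. The glucose transporter SLC2A1 was the reverse in the batches, at 40.7 and 19.9 FPKM in batch 1 and 33.4 and 75.4 in batch 2. These sizes are mostly under 1, and no glycolysis gene was in the shared lower class.

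Hypoxia-inducible factor targets stood lower in batch 1, where 22 of 24 were lower (54.3% of all protein-coding genes were) with a median of -0.67, against 15 of 24 (51% of all) and -0.11 in batch 2. BNIP3 and CA9 are described above. PDK1, which slows pyruvate entry into mitochondria, went from 9.56 to 4.71 in batch 1 and from 22 to 17.1 FPKM in batch 2. NDRG1, a stress- and hypoxia-induced gene, went from 56.7 to 34.7 in batch 1 and from 173 to 503 FPKM in batch 2, and VEGFA, the vascular growth factor, from 13.7 to 11 and from 38.8 to 75.1. The genotype-by-batch term passed for 2 of the 24, BNIP3 and CA9, beside 4.28% of protein-coding genes.

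Cell division genes were lower by small amounts. Of 30 mitosis genes, 21 were lower in both batches, with medians of -0.14 in batch 1 and -0.35 in batch 2. All 21 were lower in the serine/glycine-free pairs as well, beside 1928 of 3448 over all protein-coding genes. NDC80 was the only one to pass 1, by -1.81 in batch 1. BIRC5, survivin, went from 114 to 99.4 FPKM and from 105 to 73.7, and NUSAP1, a spindle protein, from 103 to 91.3 and from 65.5 to 34.7. Among nucleotide synthesis genes 17 of 23 were lower in both batches, with medians of -0.07 and -0.30. RRM1, the large subunit of ribonucleotide reductase, went from 59.0 to 56.0 in batch 1 and from 64.8 to 29.9 FPKM in batch 2 (genotype-by-batch -0.92 ± 0.14, limma adjusted p = 0.0270). DNA replication genes had medians of 0.04 and -0.30, and 14 of 33 were lower in both. Replication-dependent histone genes are near-identical copies whose reads may have been split. In batch 2, 21 of 21 were lower (51% of all protein-coding genes were), with a median of -0.66. In batch 1, 13 of 21 were lower (54.3% of all), with a median of -0.07.

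Transcripts of the mitochondrial genome were higher in both batches in 10 of 13 protein genes, with medians of 0.49 and 0.27. MT-ND6, a complex I subunit encoded on the light strand, went from 73.2 to 122 in batch 1 and from 57.4 to 80.2 FPKM in batch 2. MT-ND5 went from 101 to 165 FPKM and from 66.0 to 78.2, while MT-CO3 stood at 2459 and 2179 in batch 1 and at 746 and 746 in batch 2. In the serine/glycine-free pair of batch 1 the list median was 0.04, and in that of batch 2 it was 0.66. These RNAs come from 2 long precursors and do not vary independently. Among lipid synthesis genes 16 of 33 were higher in both, with medians of 0.05 and 0.30. FASN, fatty acid synthase, went from 23.2 to 64.6 in batch 1 and from 8.68 to 15.3 FPKM in batch 2, and it was higher by 1.56 and 0.96 in the serine/glycine-free pairs.

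**Figure D4:**
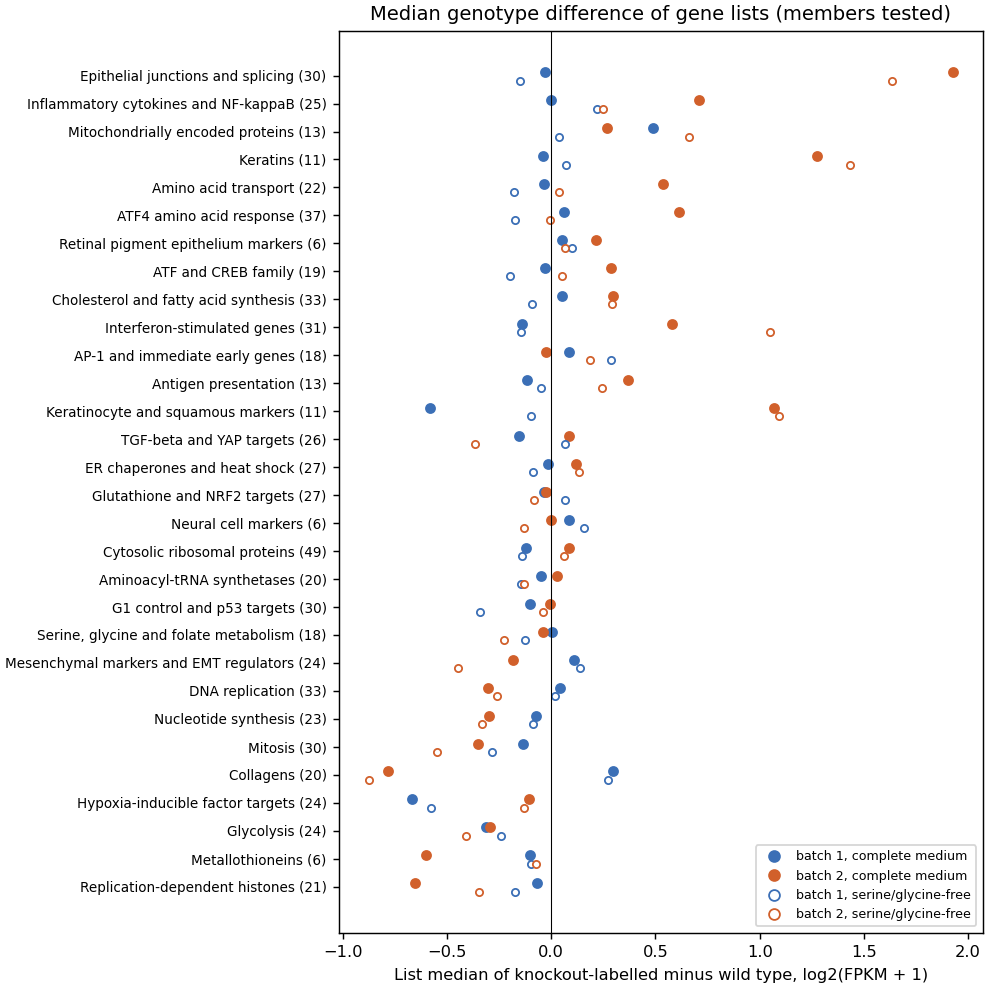
Median difference between knockout-labelled and wild-type libraries, in log2(FPKM + 1), for each gene list with 5 or more members tested (number in parentheses). Filled points are complete medium and open points serine/glycine-free medium, with batch 1 in blue and batch 2 in orange. Glycolysis lies left of 0 in both batches (-0.31 and -0.30), while the epithelial list lies at -0.03 in batch 1 and 1.93 in batch 2.

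Epithelial genes differed between the genotypes mainly in batch 2. Of 30 epithelial junction and splicing genes tested, 22 were higher by 1 or more in batch 2 (5.59% of all protein-coding genes were) and 0 in batch 1, where 2 were lower by 1 or more. The medians were 1.93 in batch 2 and -0.03 in batch 1. The genotype-by-batch term passed for 19 of the 30, beside 4.28% of protein-coding genes. The 38 listed genes summed to 90.6 FPKM in wild type and 77.5 in the knockout-labelled library of batch 1, and to 543 and 1781 in batch 2. A gene near 0 in batch 1 could differ little there on this scale, so the contrast between batches rests partly on level. EPCAM, an epithelial adhesion molecule, went from 10.7 to 102 FPKM in batch 2 and stood at 1.93 and 2.64 in batch 1 (genotype-by-batch 3.15 ± 0.31, limma adjusted p = 0.0102). CDH3, P-cadherin, went from 1.38 to 56.0 FPKM in batch 2 and stood at 0.59 and 0.33 in batch 1. CLDN7, a claudin of tight junctions, went from 4.55 to 113 FPKM, OVOL2, a transcription factor that keeps cells epithelial, from 0.37 to 12.6, and JUP, plakoglobin, from 3.88 to 32.9. CDH1, E-cadherin, went from 0.54 to 60.0 FPKM in batch 2, with 0.74 and 0.20 in batch 1. It did not pass the filter, which asks for 2 libraries, and 8 of the 38 listed genes were left out in this way. KRT7, KRT8 and KRT18, keratins of simple epithelia, went from 101 to 433, from 55 to 185 and from 47.2 to 137 FPKM in batch 2, and KRT8 and KRT18 were lower in batch 1, from 249 to 149 and from 90.9 to 49.8. In cultures sequenced in bulk, a larger share of a cell type and more RNA per cell cannot be told apart.

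Mesenchymal genes were mixed in batch 2. Of 24 tested, 14 were lower there and 7 higher, with a median of -0.19, against 0.11 in batch 1. By 1 or more, 8 were lower in batch 2 (3.74% of all were) and 0 in batch 1. In batch 2, 2 were higher by 1 or more, LUM and TAGLN, a matrix proteoglycan and an actin-binding protein. The genotype-by-batch term was negative and passed for 8 of the 24, beside 1.45% of protein-coding genes. VIM, vimentin, went from 598 to 118 in batch 2 and from 809 to 1018 FPKM in batch 1 (genotype-by-batch -2.92 ± 0.19, limma adjusted p = 0.00343). ZEB1, a repressor of epithelial genes, went from 9.97 to 3.08 in batch 2 and from 11.1 to 13.0 FPKM in batch 1. SNAI2, the related repressor Slug, went from 15.5 to 4.58 FPKM in batch 2, with 4.77 and 5.20 in batch 1, and CDH11, a cadherin of mesenchymal cells, from 160 to 59.0, with 5.29 and 11.6. Of 20 collagens, 6 were lower by 1 or more in batch 2 (3.74% of all) and 2 higher by 1 or more in batch 1 (0.986% of all). Their medians were 0.30 in batch 1 and -0.78 in batch 2. COL1A1 and COL3A1, chains of fibrillar collagens I and III, were higher in batch 1, from 9.61 to 42.7 FPKM and from 17.4 to 53.7, and stood at 2.53 FPKM or below in batch 2. COL6A1 and COL6A2 were lower in batch 2, from 132 to 68.5 FPKM and from 335 to 143. Of 16 neural markers 6 passed the filter, with a median of 0 in batch 2, where 2 were lower, 2 higher and 2 at 0. The lower ones were NES and NEFL, neural intermediate filament genes, from 18.2 to 3.67 FPKM and from 77.0 to 15.8, and the higher ones were SYP and TUBB3, by 0.50 and 0.11.

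**Figure D5:**
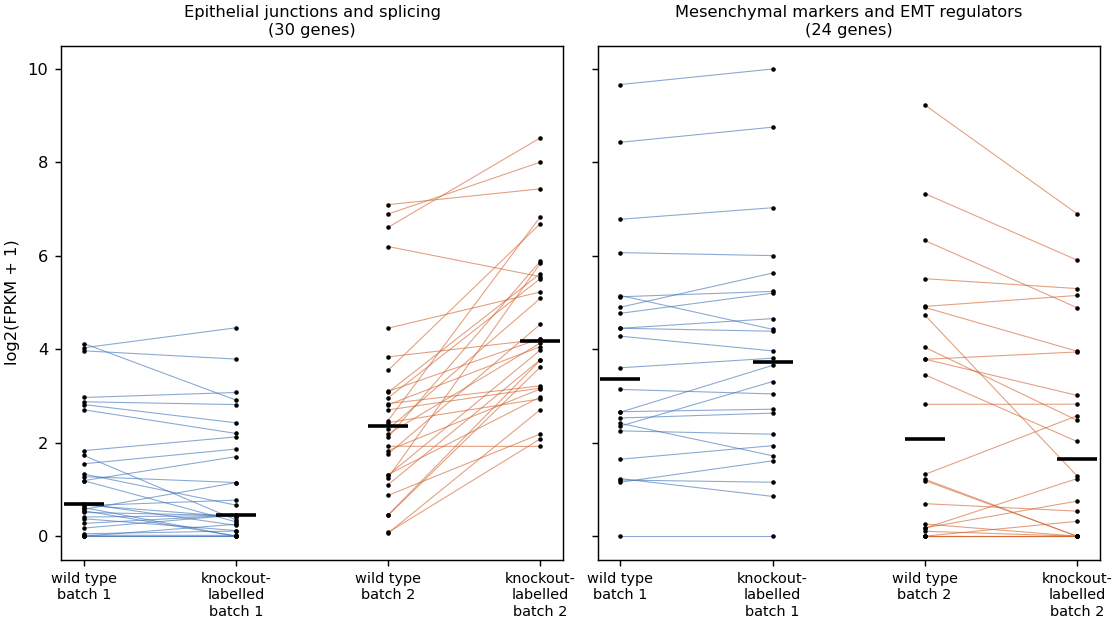
Levels in log2(FPKM + 1) of the 30 epithelial genes (left) and the 24 mesenchymal genes (right) tested, in the 4 complete-medium libraries. Points are genes, lines join the pair of a batch, and bars are list medians. Lines climb for 28 of 30 epithelial genes in batch 2 and for 12 of 30 in batch 1.

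Squamous, interferon and inflammatory lists had medians above 0.5 in batch 2 and at or below 0 in batch 1. S100A9, a calcium-binding protein of stressed epithelium and myeloid cells, went from 1.52 to 494 FPKM in batch 2 and stood at 0.00 and 0.20 in batch 1 (genotype-by-batch 7.24 ± 0.35, limma adjusted p = 0.00248). KRT5 and KRT14, which define basal keratinocytes, were listed at 0 in both libraries of batch 2, and TP63 was at 0.28 and 0.22 FPKM. Summed over the 22 squamous markers listed, the level was 607 FPKM in wild type and 1517 in the knockout-labelled library of batch 2, and 468 and 286 in batch 1. Of 31 interferon-stimulated genes 27 were higher in batch 2 (47.3% of all were) and 9 in batch 1 (44.9% of all were), with medians of 0.58 and -0.14. IFI6 went from 41.0 to 189 in batch 2 and from 35.2 to 14.8 FPKM in batch 1 (genotype-by-batch 3.51 ± 0.15, limma adjusted p = 0.00248), and OAS1, an antiviral RNA sensor, from 3.76 to 22.3, with 0.44 and 0.42. HLA-B and HLA-C, antigen-presenting molecules, were higher by 1.29 and 0.94 in batch 2 and lower by 0.25 and 0.13 in batch 1. Of 25 cytokine and NF-kappaB genes, 11 were higher by 1 or more in batch 2 (5.59% of all protein-coding genes were) and 4 were lower (3.74% of all). IL6 went from 3.52 to 46.9 FPKM and PTGS2, cyclooxygenase 2, from 5.36 to 83.9, while IL1B went from 131 to 38.8 and CXCL6 from 114 to 38.7. In batch 1, IL6, IL1B, CXCL6 and PTGS2 were all at 0.58 FPKM or below in both libraries.

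ATF3 relatives and the amino acid response were compared last. JDP2, a dimer partner of the same leucine zipper group, stood at 18.2 and 18 FPKM in batch 1 and went from 0.39 to 10.8 in batch 2 (genotype-by-batch 2.94 ± 0.39, limma adjusted p = 0.0199). ATF4 stood at 171 and 159 FPKM in batch 1 and went from 56.1 to 95.6 in batch 2. JUNB, an AP-1 partner, went from 27.2 to 20.8 FPKM and from 23.6 to 81.4, and FOS from 4.33 to 2.25 and from 0.40 to 2.79. Of 37 targets of the ATF4 amino acid response, 16 were higher in both batches and 3 lower in both (21.2% and 27.9% of all), with medians of 0.06 in batch 1 and 0.61 in batch 2. TRIB3, a pseudokinase of that response, went from 7.66 to 11.8 in batch 1 and from 24.7 to 84.7 FPKM in batch 2, a mean difference of 1.15 ± 0.35 (SE, n = 2 pairs; limma adjusted p = 0.969). ASNS, asparagine synthetase, went from 28.4 to 22.9 FPKM and from 11.3 to 29.5, and SLC7A5, the large neutral amino acid transporter, stood at 26.7 and 26.7 and went from 8.37 to 30.0. DDIT4, a brake on mTORC1, was at 48.1 and 11.8 FPKM in batch 1 and at 21.6 and 42.5 in batch 2. CDKN1A, the cell cycle inhibitor p21, likewise went from 94.0 to 47.1 in batch 1 and from 8.61 to 37.2 FPKM in batch 2 (genotype-by-batch 2.62 ± 0.43, limma adjusted p = 0.0327).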

How the data were processed

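The authors deposited 2 tables of values per gene, 1 per batch, each normalized separately. Their headers do not name the unit: the deposited values are read here as FPKM from the tools named and from the values. Per the submitters' processing notes, the tools were TopHat, Cufflinks and Cuffdiff and the build hg19; their versions were not found in what was read here. Loci are hg19, written 1-based, and 69.5% of tested genes share theirs with another listed gene, so reads may have been split. Each Ensembl ID took its gene type from GENCODE 29 (96.5% of tested genes matched). The pairing of libraries within a batch is stated in the series text.

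Limma 3.58.1 in R 4.3.3 was fitted on log2(FPKM + 1) with the batch as a block, a prior trended on level. Tests were two-sided, with Benjamini-Hochberg adjustment across the 15944 genes. A genotype-by-batch term was fitted over all 8 libraries with the medium as a term, an analysis added after the data were seen. Python 3.11.15 with pandas 2.3.3 gave the differences, windows and lists, and matplotlib 3.10.9 the figures. Both fits were tested on simulated data.

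Genes named are ATF3, the shared genes at 5 FPKM or more in each batch, those of 1 batch at 10 FPKM in it and 5 FPKM in the other (up to 8 per direction), up to 6 opposite genes per direction, called genes and members of 32 lists; not every one is described, and 1 is not reported here. SERPINB7, GNG2, ABLIM1, ID3 and the genes of the stretches were picked after their values were seen. Members and lists were chosen with earlier results of these data known. Of the list genes, 2 were not found under their symbol. Alternatives varied pseudocount, filter, scaling, block, threshold, prior and libraries.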

Additional observations from a re-analysis of the deposited data

Results flagged for a closer look

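The ATF4 amino acid response had a median mean difference of 0.27 over 37 genes in complete medium (0.06 in batch 1 and 0.61 in batch 2), whereas without serine and glycine its median was -0.17 in batch 1 and -0.00372 in batch 2. It is named because the list median was above 0 in both pairs of one medium and below 0 in both pairs of the other. This difference between media was not tested.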

How the results depend on the processing

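The counts of limma calls, 5 higher and 8 lower, depended on the settings. They were 1 and 2 with a pseudocount of 0.1, 4 and 4 with a pseudocount of 5, 0 and 1 without the filter, 0 and 0 with 1 FPKM or more in all 4 libraries, 3 and 6 with libraries scaled to one median, 2 and 4 with all 8 libraries and 0 and 0 with protein-coding genes only, in 4 or 8 libraries. Without the replicate block the calls were 0 and 1 (66 genes at an unadjusted p under 0.05); the labels state the pairing, so the block was kept. Leaving out each complete-medium library in turn, possible only within the 8-library fit, gave 0 to 5 higher and 1 to 10 lower: 5 and 5 without wild-type replicate 1, 0 and 1 without knockout-labelled replicate 1, 3 and 6 without wild-type replicate 2, and 4 and 10 without knockout-labelled replicate 2.

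Over all gene types the classes held 63 shared higher, 89 shared lower, 304 of batch 1, 870 of batch 2 and 154 opposite genes. In that order they held 147, 154, 534, 1452 and 372 with a pseudocount of 0.1, 12, 27, 81, 341 and 31 with 5, and 11, 19, 170, 561 and 23 with 1 FPKM in all 4 libraries. With a threshold of 0.58 they held 221, 284, 1293, 2707 and 554, and with 1.5 they held 19, 31, 82, 277 and 40. Among protein-coding genes alone they held 14, 22, 161 and 54, with 693 in batch 2, and the serine/glycine-free libraries gave 80 opposite genes. With a pseudocount of 5, 0 of the shared higher and 3 of the shared lower genes were protein-coding. Genes can leave the shared classes there through a low level or through a difference just past 1, and these were not separated. Classing the serine/glycine-free libraries in the same way gave 20 protein-coding shared lower genes, 7 of them in both sets, and 13 shared higher genes with 1 in both.

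Of the values of named genes, ATF3 changed sign, to -0.0512, without wild-type complete replicate 2, and was 2.25 without wild-type complete replicate 1. Of the named genes refitted in this way with 8 libraries, DCBLD1 moved by over 1.5 times, from 1.18 to 0.78 without knockout-labelled replicate 1 and to 0.68 without wild-type replicate 2, and EPB41L3 from -3.23 to -1.86 without knockout-labelled replicate 2. None of these was called. Scaling moved the median protein-coding difference by 0.03 in batch 1 and by -0.00407 in batch 2. Depth is unknown, and the genotype fit had 1 residual degree of freedom, so a large p in it says little about a single gene.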
